A study of Oryza sativa with 4 samples.

Results

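The light-harvesting antenna of photosystem II was followed through 8 rice loci, picked by their locus identifiers from the 52795 loci on the array. The major antenna is represented by 5 loci: the LHCB1 copies LOC_Os01g41710 (CAB2R), LOC_Os09g17740 (CAB1R) and LOC_Os01g52240, LHCB2 (LOC_Os03g39610) and LHCB3 (LOC_Os07g37550). The minor antenna is represented by 3 loci: LHCB4 (LOC_Os07g37240), LHCB5 (LOC_Os11g13890) and LHCB6 (LOC_Os04g38410). Each locus had 1 probe, printed as 1 spot, so no second probe of the same gene could check a value. All 8 probes were well above background on all 4 arrays and all 8 loci were tested, and no spot was saturated. A table of RefSeq gene names listed CAB2R on chromosome 1 and CAB1R on chromosome 9, the chromosomes of their locus identifiers. The other 6 names had no entry there and are those under which the loci were chosen.

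The study set transgenic line 40, which overexpresses LOC_Os02g43330, a homeodomain-leucine zipper transcription factor gene of class I, against its parent cultivar, japonica Nipponbare. Both groups were whole seedlings aged 14 days, raised in potted soil in a greenhouse under daylight and ambient temperature, and each group was measured on 2 arrays of biological replicates. The labels name only line 40, so it stands as a single line, and the promoter that drives the transgene is not given in the sources used here. RNA came from whole seedlings, so a different number of green cells and a different amount of transcript per cell cannot be told apart in any value below.

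Light-harvesting proteins bind chlorophyll a and b and pass the absorbed energy to the reaction centre. Proteins of LHCB1, LHCB2 and LHCB3 form the trimers that make up most of the antenna, whereas LHCB4 (CP29), LHCB5 (CP26) and LHCB6 (CP24) are monomers that link these trimers to the core. All are encoded in the nucleus, made in the cytosol and imported into the chloroplast. In leaves their transcripts are among the most abundant messages and are known to respond to light, chloroplast state and time of day.

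Values are log2 of the background-subtracted spot signal minus the array's 75th percentile, called normalized log2 signal below, and a difference is line 40 minus wild type on that scale. That percentile was a signal of 404 and 431 in line 40 and of 367 and 488 in wild type. The overexpressed gene, HOX24 in the gene table, had normalized log2 signals of 9.15 and 9.35 in line 40 and 1.98 and 2.12 in wild type. Its difference of 7.20 (SE 0.16, limma adjusted p = 0.00105) agreed in direction with its label.

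Of the 8 antenna loci, 1 rose in line 40 and none fell at a limma adjusted p under 0.05, where 0.929% of all 36902 tested loci rose and 1.15% fell. The locus that rose was LHCB4. Without adjustment 5 of the 8 had p under 0.05, against 24.9% of all tested loci. The groups did not overlap, with line 40 higher, for 6 of the 8 loci, against 25.1% of all tested loci. These 6 are all among the brightest 10% of tested loci, where that share was 44.6%. Among the 54 tested loci brighter than LHCB6, which include CAB2R and LOC_Os01g52240, 44 were higher in line 40 without overlap. Of those 54 loci, 29 had an unadjusted limma p under 0.05. The median difference over the 8 loci was 0.67, and that over all tested loci was -0.06.

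LHCB4 encodes CP29, a monomer that binds directly to the core. Its spot signals were 28416 and 35530 in line 40, against 10206 and 15099 in wild type. These correspond to normalized log2 signals of 6.14 and 6.37 in line 40 and of 4.80 and 4.95 in wild type. Both line 40 arrays lay far above both wild type arrays, and the closest pair of arrays across groups was 1.19 apart. LHCB4 averaged 6.25 ± 0.16 in line 40 and 4.88 ± 0.11 in wild type (SD, n = 2 each). The difference was 1.38 (SE 0.17, 95% interval 0.95 to 1.80), or 2.60-fold (limma adjusted p = 0.0357). It lay at percentile 98.9 of the differences of all tested loci. The difference stayed between 1.26 and 1.49 when each array was left out in turn, although the adjusted p was then 0.0522 to 0.128. After quantile and cyclic loess normalization it was 1.08 and 1.14 (adjusted p = 0.0611 and 0.0546), and with dim probes kept in the test the adjusted p was 0.0818.

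LHCB5 encodes CP26, another monomer bound to the core. It had normalized log2 signals of 6.84 and 6.97 in line 40, against 6.05 and 6.23 in wild type. The groups did not overlap, and the gap between them, 0.61, exceeded the distance between replicates in either group. Its difference was 0.77 (SE 0.16, 95% interval 0.36 to 1.17; limma adjusted p = 0.0818), a 1.70-fold value that missed the threshold.

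LHCB6 encodes CP24, which in Arabidopsis binds next to CP29 and helps hold an outer trimer. It had normalized log2 signals of 8.43 and 8.52 in line 40, against 7.73 and 7.80 in wild type. Replicates lay close together and the groups were apart by 0.63. Its difference was 0.71 (SE 0.15, 95% interval 0.34 to 1.09; limma adjusted p = 0.0801), or 1.64-fold, and it too missed the threshold.

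**Figure D1:**
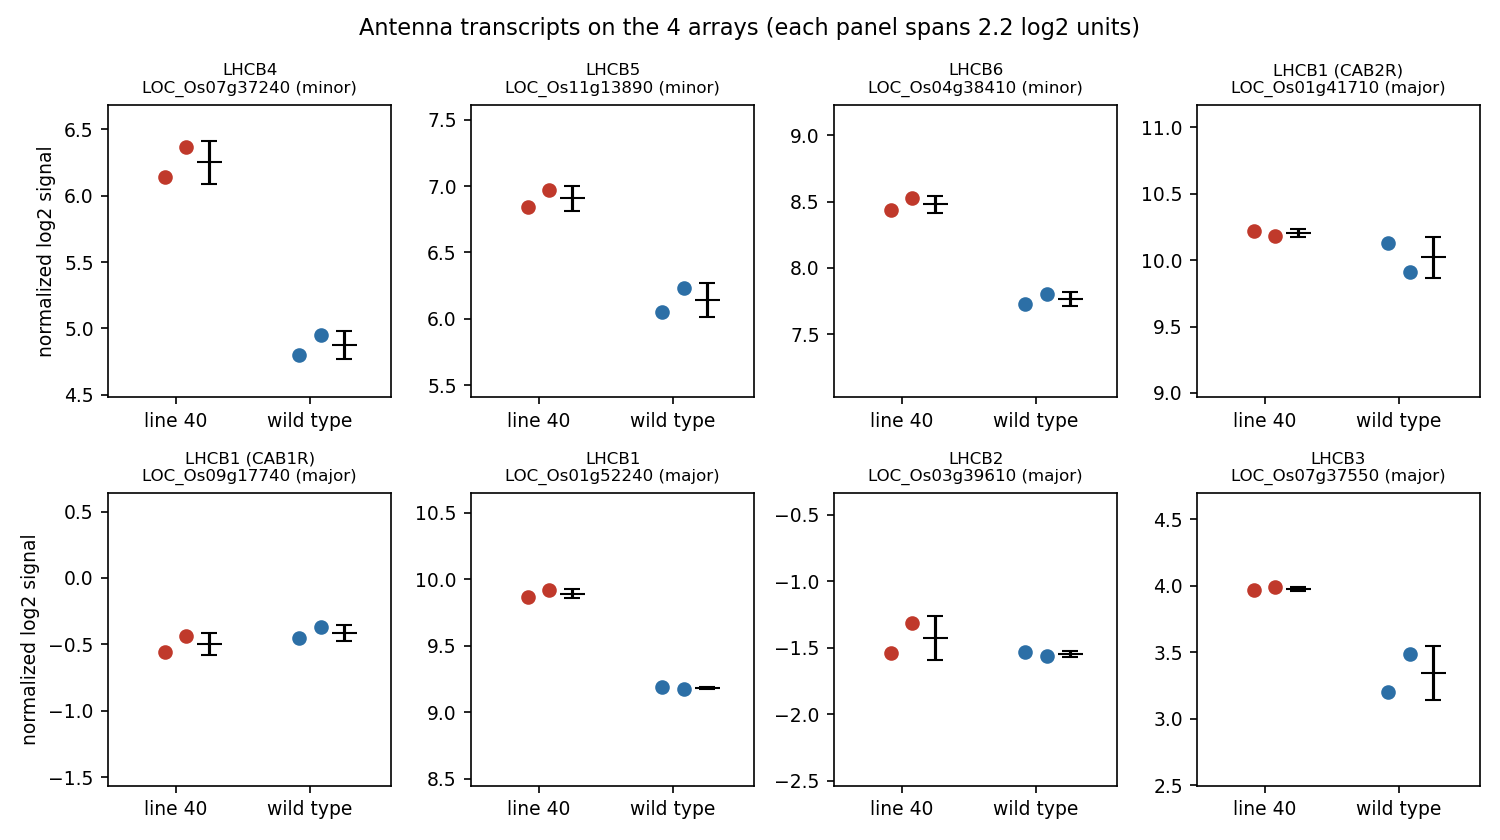
Normalized log2 signal (vertical axis) of the 8 antenna loci on the line 40 arrays (left in each panel) and the wild type arrays (right). Points are arrays and bars are mean ± SD over 2 arrays. Every panel spans the same range, so the distance between groups can be read across panels. It is widest for LHCB4, at 1.38, and the groups overlap for CAB1R and LHCB2.

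The 3 LHCB1 copies, which encode the chief protein of the trimers, did not share one value. LOC_Os01g52240 had spot signals of 377453 and 416695 in line 40, against 213718 and 282454 in wild type. Its normalized log2 signals were 9.87 and 9.92 in line 40, against 9.19 and 9.18 in wild type. The replicates nearly coincided and the groups were 0.68 apart. The difference was 0.71 (SE 0.14, 95% interval 0.35 to 1.08; limma adjusted p = 0.0778), or 1.64-fold, which missed the threshold.

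CAB2R (LOC_Os01g41710) had spot signals of 482493 and 500904 in line 40, against 411486 and 470956 in wild type. On the normalized log2 scale these were 10.22 and 10.18 in line 40, against 10.13 and 9.91 in wild type. The line 40 arrays were the higher ones, but by only 0.05 at the closest, less than the distance between the wild type arrays. Its difference was 0.18 (SE 0.16, 95% interval -0.23 to 0.59; limma adjusted p = 0.515). This spot was the brightest of the 8, and its median pixel signal reached 74.3% of the scanner's saturation value of 779352.

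CAB1R (LOC_Os09g17740) had normalized log2 signals of -0.56 and -0.44 in line 40, against -0.45 and -0.37 in wild type. The groups overlapped. Its difference was -0.09 (SE 0.15, 95% interval -0.47 to 0.30; limma adjusted p = 0.749), so a 1.23-fold higher value lay at the upper end of its interval. Its spot signals were only 275 and 317 in line 40, against 268 and 378 in wild type, far below those of the other LHCB1 probes. Signals of different probes do not give an order of transcript abundance. The LHCB1 coding sequences are much alike, and how far the probes of these copies pick up each other's transcripts was not tested, as the probe sequences were not used here.

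LHCB2, whose protein in Arabidopsis is phosphorylated in state transitions, had normalized log2 signals of -1.54 and -1.31 in line 40, against -1.53 and -1.57 in wild type. The groups overlapped. The difference was 0.12 (SE 0.16, 95% interval -0.29 to 0.53; limma adjusted p = 0.667). Its probe was the dimmest of the 8, with spot signals of 139 and 174 in line 40 and 127 and 165 in wild type.

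LHCB3, a trimer subunit that in Arabidopsis lacks that phosphorylation site, had normalized log2 signals of 3.97 and 3.99 in line 40, against 3.20 and 3.49 in wild type. Both line 40 arrays were higher, and the wild type arrays were spread more widely than those of line 40. The difference was 0.63 (SE 0.17, 95% interval 0.20 to 1.06; limma adjusted p = 0.119), or 1.55-fold. It did not pass. Leaving out wild type replicate 1 gave 0.49, and leaving out replicate 2 of the wild type gave 0.77.

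**Figure D2:**
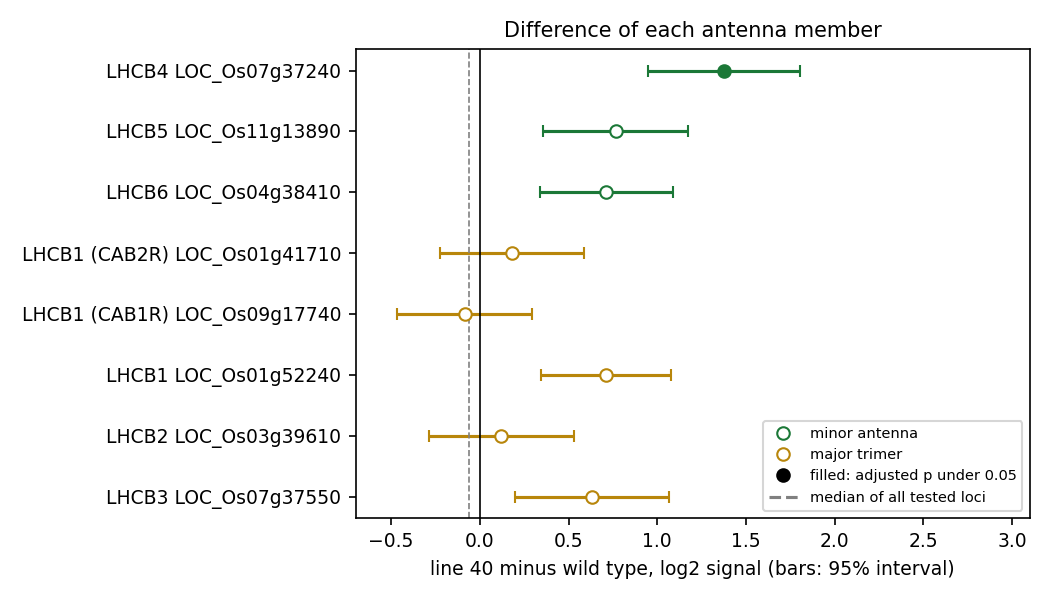
Difference between line 40 and wild type in log2 signal (horizontal axis) for each antenna locus, with its 95% interval from limma. The filled point marks the adjusted p under 0.05 of LHCB4; the intervals of LHCB5, LHCB6, LHCB3 and LOC_Os01g52240 lie above 0, and those of CAB2R, CAB1R and LHCB2 include 0.

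Set side by side, all 3 minor loci had differences between 0.71 and 1.38, and the 5 major loci between -0.09 and 0.71. The mean of the minor loci, after each locus was centred on its mean over the 4 arrays, was 0.40 and 0.55 on the line 40 arrays and -0.54 and -0.41 on the wild type arrays. The mean of the major loci was 0.12 and 0.19 on the line 40 arrays and -0.17 and -0.15 on the wild type arrays. Both classes therefore lay higher on both line 40 arrays, the minor class by 0.95 and the major class by 0.31. The ratio of minor to major signal within an array differed between the groups by 0.64, or 1.56-fold, with SDs of 0.05 in line 40 and 0.08 in wild type (n = 2 each). This is a description of the chosen loci and was not tested.

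The class difference depended on a few loci, as alternatives chosen after seeing the data showed. Without LHCB4 it was 0.43. Without the dim probes of CAB1R and LHCB2 it was 0.44, and the major loci that remained included LOC_Os01g52240 and LHCB3, whose differences of 0.71 and 0.63 were close to the 0.71 and 0.77 of LHCB6 and LHCB5. These removals were not combined, and CAB2R, at 0.18, stayed among the major loci in both. The class difference was 0.39 after quantile normalization and 0.53 after cyclic loess.

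**Figure D3:**
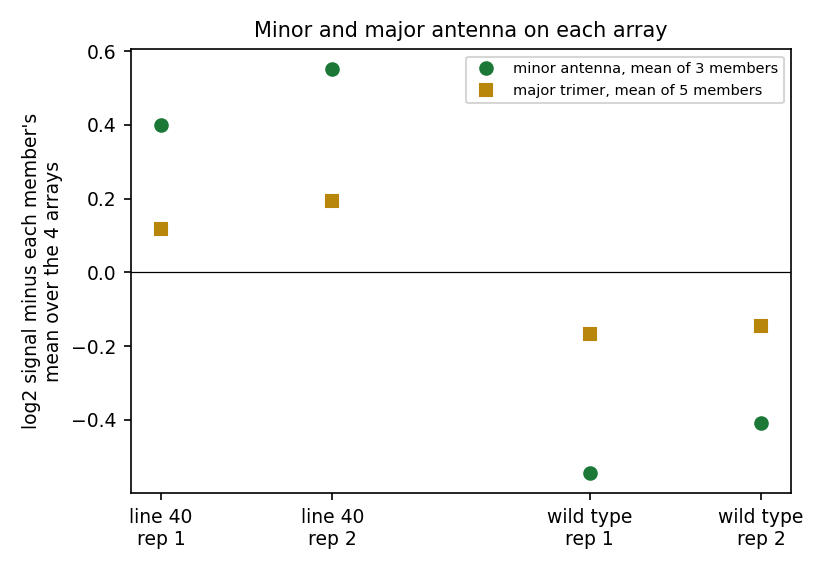
Mean log2 signal of the 3 minor loci (circles) and the 5 major loci (squares) on each array, after subtracting each locus's own mean over the 4 arrays (vertical axis). On both line 40 arrays both classes lie above 0, the minor class at 0.40 and 0.55, and on both wild type arrays they lie below it.

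The size of the differences moved with how bright the probes were. The median difference of all tested loci was -0.50 in the dimmest 10% of loci and 0.13 in the brightest 10%. LHCB3 to LHCB6, CAB2R and LOC_Os01g52240 belong to the brightest 10%, where 1.65% of 3691 loci rose and 44.6% had line 40 above wild type without overlap. CAB1R and LHCB2 lie in the middle of the brightness range, at percentiles of 60.8 and 47.4.

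The spike-in control probes of the array also lay higher in line 40 at most brightness levels. Those with mean signals of 15840, 33190 and 123280, the range of LHCB4, LHCB5 and LHCB6, had differences of 0.29, 0.43 and 0.26. LHCB4 exceeded all 3 of these values, and LHCB5, LHCB6 and LOC_Os01g52240 exceeded them by less, whereas CAB2R at 0.18 lay below them. The spots of LOC_Os01g52240 and CAB2R were brighter than any of these control probes. The labels do not say whether equal amounts of spike-in were added. Scaled to these control probes instead of the 75th percentile, an alternative chosen after seeing the data, LHCB4 had a difference of 1.16. It was the only antenna locus under the threshold (limma adjusted p = 0.00627), where 1.78% of all tested loci rose. In that fit HOX24 had a limma adjusted p of 5.1e-94, against 0.00105 with the 75th percentile. The p values of that fit can therefore not be set beside those reported. LHCB5, LHCB6, LOC_Os01g52240 and LHCB3 then lay at 0.55, 0.50, 0.50 and 0.42, and CAB2R, LHCB2 and CAB1R at -0.034, -0.093 and -0.30. That scaling moved the median of all tested loci to -0.28.

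**Figure D4:**
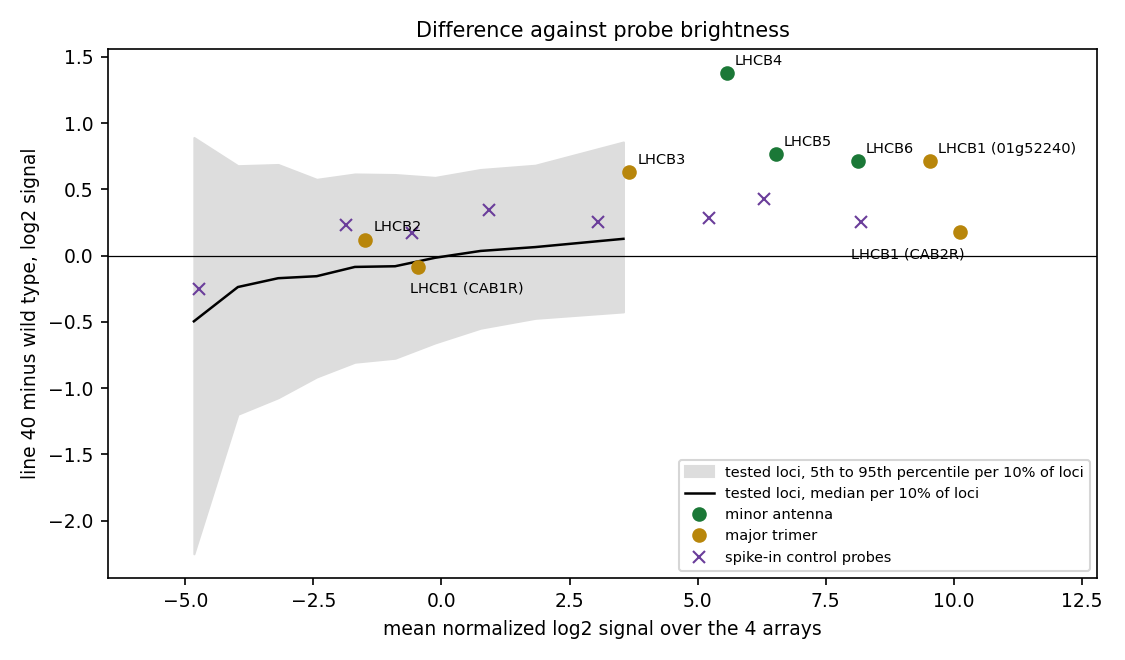
Difference between line 40 and wild type (vertical axis) against mean normalized log2 signal (horizontal axis) for the antenna loci, for the spike-in control probes and for all tested loci in bins of 10% by brightness, each bin drawn at its median (line) with a grey band that holds most of its loci, from the 5th to the 95th percentile. LHCB4 stands highest at 1.38, CAB1R and LHCB2 stand at -0.09 and 0.12, where the medians of their bins are -0.02 and -0.08, and of the 8 spike-in probes well above background, the dimmest lies at -0.25 and the other 7 between 0.17 and 0.43.

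The number of antenna loci past the threshold varied with the processing. With normexp background correction 4 loci rose, LHCB4, LHCB5, LHCB6 and LOC_Os01g52240, where 2.07% of all tested loci rose. The same 4 loci rose with median scaling, where the share was 4.03%, and all of them except LHCB5 rose on the median spot signal without background subtraction, where it was 1.94%. With limma's variance prior following signal brightness, LHCB3 rose as well, so that 5 of 8 passed against 3.38% of all tested loci. After quantile normalization, after cyclic loess and with dim probes kept, limma called none, where 0.68%, 0.821% and 0.0284% of all tested loci rose. LHCB4 had the largest difference of the 8 in every one of these fits.

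**Figure D5:**
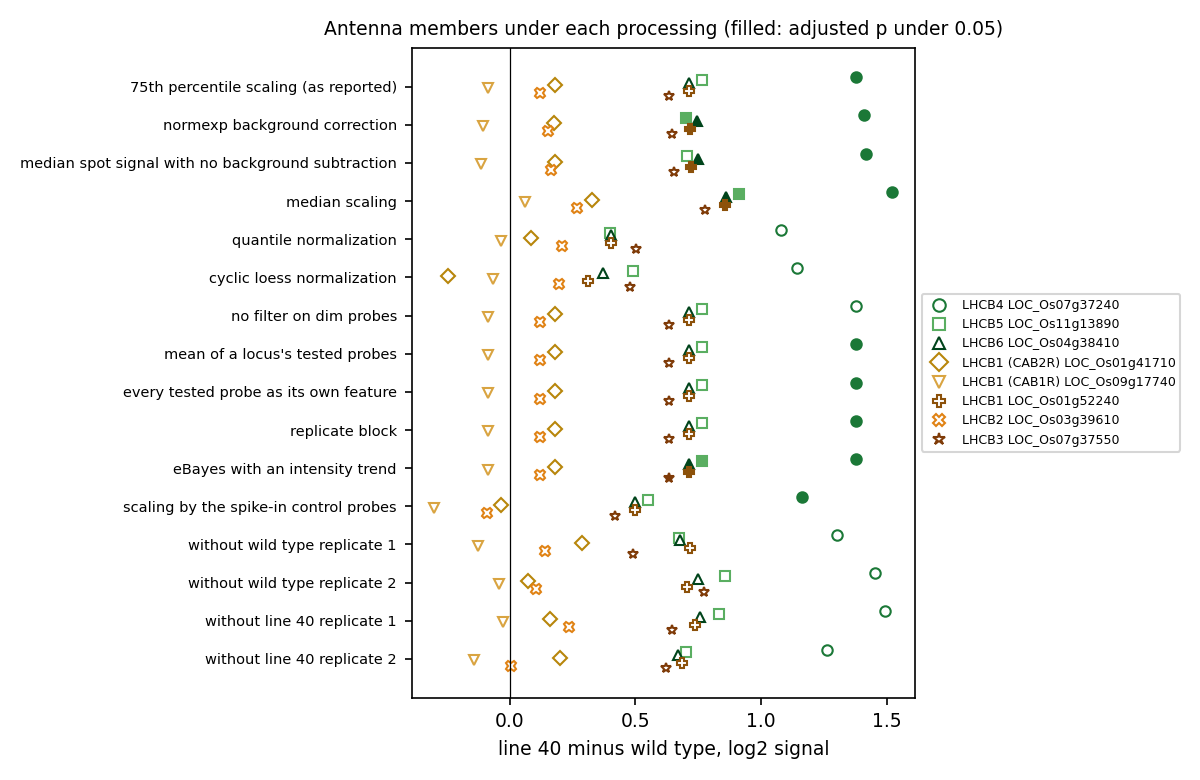
Difference between line 40 and wild type (horizontal axis) of each antenna locus under each processing alternative (rows). Filled symbols mark an adjusted p under 0.05. LHCB4 lies between 1.08 and 1.52 in all rows, and CAB2R, CAB1R and LHCB2 lie between -0.30 and 0.33.

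Genes that work with this antenna were taken from hand-written lists, with names given only where the gene table bears them out. Of 6 loci listed for the photosystem I antenna, all were tested, none passed by limma over all loci and all 6 had an unadjusted p under 0.05, against 24.9% of all tested loci. Their differences ran from 0.65 to 1.05 with a median of 0.83, and line 40 lay above wild type without overlap for all 6, against 25.1% of all tested loci and 44.6% of the brightest 10%. The lowest adjusted p values were those of LOC_Os09g26810 (0.96, limma adjusted p = 0.0582), LOC_Os02g52650 (1.05, limma adjusted p = 0.0603) and LOC_Os07g38960 (0.86, limma adjusted p = 0.0707).

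Among 11 loci listed for nuclear subunits of photosystem II, 2 rose and none fell, against 0.929% and 1.15% of all tested loci, and the median was 0.54. LOC_Os01g31690 rose 2.17-fold (1.12, SE 0.14, limma adjusted p = 0.0409) and LOC_Os03g21560 rose 2.06-fold (1.04, SE 0.15, limma adjusted p = 0.0483). LOC_Os07g36080 lay at 0.98 (limma adjusted p = 0.0533). PSB28 (LOC_Os01g71190), a factor that associates with assembling photosystem II, lay at 0.54 (limma adjusted p = 0.139). The list also held loci below 0. LOC_Os04g59440 had normalized log2 signals of 7.18 and 7.21 in line 40, against 7.97 and 7.98 in wild type, without overlap. Its difference was -0.78 (SE 0.14, limma adjusted p = 0.0675), which missed the threshold. PSBW (LOC_Os01g56680), a small subunit of photosystem II, lay at -1.59 (limma adjusted p = 0.165) on a dim probe, with normalized log2 signals of -6.09 and -5.97 in line 40, against -3.63 and -5.25 in wild type. The wild type arrays of this probe lay far apart. The test admitted probes that were well above background in 1 group only, so a low value on a probe this dim is not read further.

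Of 7 loci listed for antenna assembly and chlorophyll b, 5 were tested. None passed by limma and 2 of the 5 had an unadjusted p under 0.05, against 24.9% of all tested loci: LOC_Os03g03990 at 1.02 (limma adjusted p = 0.0541) and LOC_Os01g72800 at 0.91 (limma adjusted p = 0.0665). The third smallest adjusted p was that of LOC_Os11g05552 at 0.30 (limma adjusted p = 0.281). LOC_Os10g41780, the only tested locus of this list below 0, lay at -0.28 (SE 0.38, limma adjusted p = 0.674), and its groups overlapped. NYC1 (LOC_Os01g12710), a chlorophyll b reductase that starts the breakdown of the antenna, lay at 0.04 (SE 0.15, limma adjusted p = 0.899). NOL (LOC_Os03g45194), its partner, and LOC_Os10g41760 were too dim to be tested.

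GLK1 (LOC_Os06g24070) and GLK2 (LOC_Os01g13740), transcription factors that switch on antenna and chlorophyll genes, lay above wild type on both line 40 arrays. All 3 listed regulators did so without overlap, against 25.1% of all tested loci and 44.6% of the brightest 10%. GLK1 had normalized log2 signals of 0.28 and 0.48 in line 40, against -0.0014 and 0.01 in wild type, a difference of 0.37 (SE 0.15, limma adjusted p = 0.218). GLK2 had 2.68 and 2.80 in line 40, against 2.35 and 2.48 in wild type, a difference of 0.32 (SE 0.15, limma adjusted p = 0.264). Neither passed, adjusted or not, and neither did LOC_Os05g47560, the third listed regulator, at 0.20.

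Leaf and root markers were read in the same seedlings. All 5 loci listed for leaf mesophyll lay above 0, against 43.7% of all tested loci and 66.7% of the brightest 10%, with a median of 0.58. For 1 of them, LOC_Os03g16050, the gene table puts the listed name on another chromosome, so its identity was not borne out; the other 4 lay above 0 as well. The list had 1 locus that rose, where 0.929% of all tested loci did, the Rubisco small subunit locus LOC_Os12g17600 (1.44, SE 0.15, limma adjusted p = 0.0276). Their summed signal, relative to the 75th percentile, was 1630 and 1727 in line 40, against 1543 and 1339 in wild type. Rubisco activase (RCA, LOC_Os11g47970), another abundant leaf gene, lay at 0.09 (SE 0.16, limma adjusted p = 0.762). The remaining leaf loci, LOC_Os12g19470, LOC_Os12g19381 and LOC_Os03g16050, lay at 0.87, 0.58 and 0.54 (limma adjusted p = 0.0865, 0.204 and 0.122). Of 10 root loci 4 lay above 0, a share near the 43.7% of all tested loci, with a median of -0.14. By limma none passed, and 4 had an unadjusted p under 0.05, against 24.9% of all tested loci. These 4 lay on both sides of 0: LOC_Os04g44060 at 1.19, LOC_Os07g26660 at 1.14 and LOC_Os02g44310 at 0.49, and LOC_Os02g40710 at -1.36. The summed root signal was 225 and 210 in line 40, against 138 and 161 in wild type, so the sum and the median of the root list pointed opposite ways. Each sum rests mostly on the brightest locus of its list. For leaf this is RCA, with a mean normalized log2 signal of 10.44 in line 40 and 10.35 in wild type. For root it is LOC_Os02g44310, at 7.34 and 6.85. The part of leaf and root content in the antenna values was not tested.

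Among the listed loci, those whose centred values over the 4 arrays lay closest to the mean profile of the 8 antenna loci were LOC_Os03g16050 of the leaf list, whose identity was not borne out, LOC_Os02g44310 of the root list, PSB28, LOC_Os06g21590 and GLK1, at root mean square distances of 0.031 to 0.096. Of the antenna loci themselves, LHCB6 (0.081) and LOC_Os01g52240 (0.086) lay closest to that mean and LHCB4 (0.42) and CAB1R (0.32) farthest from it. With 4 arrays this is a description only.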

How the data were processed

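Cy3-labelled total RNA was hybridised to a custom 1-colour Agilent array. Spot intensity is on a linear scale and came from Agilent Feature Extraction version 10.7.1.1, with background subtraction and detrending but no scaling between arrays, per the file headers. The value table the authors deposited holds the same intensity. All 4 arrays had 1 scan time and 1 slide, so neither separates the groups.

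From these intensities log2 values were computed, and each array's 75th percentile over non-control spots was subtracted. Probes with uneven spots on an array (32) were dropped and repeated spots averaged. Loci entered the test through their brightest probe, provided that both arrays of either group had it well above background. Groups were compared with limma 3.58.1 (R 4.3.3, two-sided) with Benjamini-Hochberg adjustment over 36902 loci at 0.05. The number of arrays limits the precision. The scripts were tested on simulated data.

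The members and lists were chosen with earlier results of these data known. Text names all members, the overexpressed gene, list loci past the threshold or up to 3 with the smallest adjusted p, and the 5 with the closest profile. Of 51 listed loci the gene table bore out 22 names by chromosome and order; 28 had no entry and 1 lay on another chromosome. PSBW, NYC1, NOL, LOC_Os10g41760, LOC_Os10g41780, LOC_Os05g47560, LOC_Os04g59440, RCA, LOC_Os12g19381 and the 4 root loci were named after their values were seen. Normexp used the median signal, as the files hold no mean signal. The array design rests on assembly IRGSP5, and no coordinates are given.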

Additional observations from a re-analysis of the deposited data

How the results depend on the processing

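All 8 antenna loci kept the sign of their difference with each array left out, and the exceptions among the other alternatives were CAB1R at 0.060 with median scaling, CAB2R at -0.25 after cyclic loess, and CAB2R at -0.034 and LHCB2 at -0.093 with scaling to the spike-in probes. The antenna loci called numbered 4 with normexp, 3 on the unsubtracted median signal, 4 with median scaling, 5 with a brightness trend in the prior, and 0 after quantile normalization, after cyclic loess and with dim probes kept. With each array left out in turn, LHCB4 lay at 1.26 to 1.49. The median difference of the 8 antenna loci was 0.82 with median scaling, 0.40 after quantile normalization, 0.34 after cyclic loess, 0.46 with spike-in scaling, and 0.58 to 0.73 with an array left out. The minor minus major difference was 0.39 after quantile normalization, 0.53 after cyclic loess, 0.43 without LHCB4, 0.44 without CAB1R and LHCB2, and 0.58 to 0.70 with an array left out. Loci called over the whole array, 766 as reported, numbered 2736 with median scaling, 406 after quantile normalization, 23 with dim probes kept (where 52765 loci were tested), 2165 with the brightness trend, 4766 with spike-in scaling (657 higher and 4109 lower, against 343 and 423 as reported), and 399 to 1802 with an array left out, both extremes from leaving out a wild type array. HOX24 passed in every alternative run, at 6.91 to 7.34. With the replicate number as a block 778 loci passed and LHCB4 still did (limma adjusted p = 0.0445). The labels do not say that equal numbers mark a shared origin, and deviations of same-numbered arrays correlated at -0.07 across loci. The cause of these shifts was not tested. With 2 arrays per group, differences the size of those of LHCB5, LHCB6 and LOC_Os01g52240 sat on either side of the threshold.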

Other observations

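The antenna includes some of the brightest spots of the array. A mean signal above that of LHCB6 was found for 54 tested loci, among them CAB2R and LOC_Os01g52240. Of these 54 loci, 51 had a difference above 0, with a median of 0.39, and 1 rose by limma. That locus, named after its values were seen, was LOC_Os01g45274 at 1.43 (limma adjusted p = 0.0277). Within this brightest group the 0.71 of LOC_Os01g52240 lay above the upper quartile of 0.56 and the 0.18 of CAB2R below the lower quartile of 0.23.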
